A study of Mus musculus with 45 samples.

Results

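The mRNA of 6 mouse mammary tumour cell lines that had been recovered from lungs was compared in control medium, between lines that had passed through the lung in succession (LM-LM) and lines that had passed through it once (LM). The LM-LM group held LM1-LM, LM2-LM and LM3-LM and the LM group held LM1, LM2 and LM3. With 3 cultures of each line, 9 LM-LM and 9 LM libraries were compared, 18 of the 45 libraries of the series. The samples were chosen by their labels alone: the cell line and control treatment. All 6 lines descend from Myc310, a line from an MMTV-cMYC mouse with multiple tumours, in which the mouse mammary tumour virus promoter drives the cMYC transgene. The LM lines were isolated from lungs after Myc310 cells had been injected into the mammary fat pad of virgin FVB/NJ mice. LM1-LM came from lungs in the same way after LM1 had been injected, and the further LM-LM lines are described as biological replicates of LM1-LM. Whether LM2-LM and LM3-LM were raised from LM1 or from LM2 and LM3 is not given in the sources used here, so a shared number was not taken as parent and offspring. Wells received 250000 cells, fresh control medium was given 24 h later, and RNA was taken 6 h after that. Each line is 1 isolate, and its 3 cultures are described as technical replicates, so the number of independent units is 3 lines in each group.

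Metastasis to the lung requires tumour cells to leave the mammary gland, survive in the circulation, and grow in a tissue rich in oxygen. Recovering cells from lung nodules and injecting them again is a classical way to obtain more metastatic lines, and each line recovered in this way starts from the cells that happened to be taken from that animal. The question that the comparison addresses is whether a further passage through the lung is accompanied by a shared change in gene expression in culture. The spread between sister lines is the measure against which such a change has to be read.

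Counts on genes ranged from 21779599 to 26303095 per LM-LM library (median 23675717) and from 19521444 to 25539504 per LM library (median 22442103). No 2 libraries differed by less than sampling noise. The label of mammary epithelium was met in part. The luminal keratins Krt8 and Krt18 reached 833 to 1704 CPM (the count scaled to library size after TMM normalisation, as line means) and 191 to 546 CPM, and the summed level of the mammary epithelial markers was 1170 to 2106 CPM in LM and 1080 to 2327 CPM in LM-LM lines. In contrast, Cdh1, which encodes E-cadherin, and Epcam did not exceed 0.0837 CPM and 0.125 CPM in any of the 18 libraries, while the mesenchymal filament gene Vim stood at 3282 to 3934 CPM, and the mammary marker Elf5 was at 0. Markers of leukocytes, endothelium and airway were low, and fibroblast markers were higher. The summed levels in LM and LM-LM lines were 9.43 to 17.5 CPM and 12.3 to 19.7 CPM for leukocyte markers, 0.375 to 1.37 CPM and 0.431 to 1.11 CPM for endothelial markers (Erg at 0), and 0.542 to 1.03 CPM and 0.164 to 1.46 CPM for alveolar and airway markers (Sftpc and Sftpb at 0). Fibroblast markers summed to 21.2 to 163 CPM and 40.6 to 277 CPM, with Thy1 and Fap at 0. Col3a1 made up most of the highest sums, with 109 CPM in LM3 and 199 CPM in LM3-LM, whereas the fibroblast genes Dcn, Lum, Col1a1 and Col1a2 did not exceed 0.474 CPM in any line, and the cells that gave this signal were not tested. Myc, which the transgene and the endogenous gene may both feed, was at 820 to 1165 CPM in LM and 693 to 1178 CPM in LM-LM lines (log2 fold change -0.04). In bulk RNA of this kind, fewer cells of a type and less RNA per cell cannot be told apart.

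The lines, more than the number of lung passages, set the libraries apart. The first 3 principal components of the 18 libraries held 39.6%, 18.1% and 13.0% of the variance. On the first component LM1 (36.8 to 37.9), LM1-LM (48.1 to 49.1) and LM2-LM (23.1 to 23.6) lay on one side, and LM2, LM3 and LM3-LM (-39.2 to -33.9) lay on the other. The second component held LM2-LM apart (52.8 to 53.4, against at most 4.04 in every other library), and the third held LM2 apart (40.7 to 41.4, against at most 7.81). None of the 3 components separated the LM-LM libraries from the LM libraries.

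**Figure D1:**
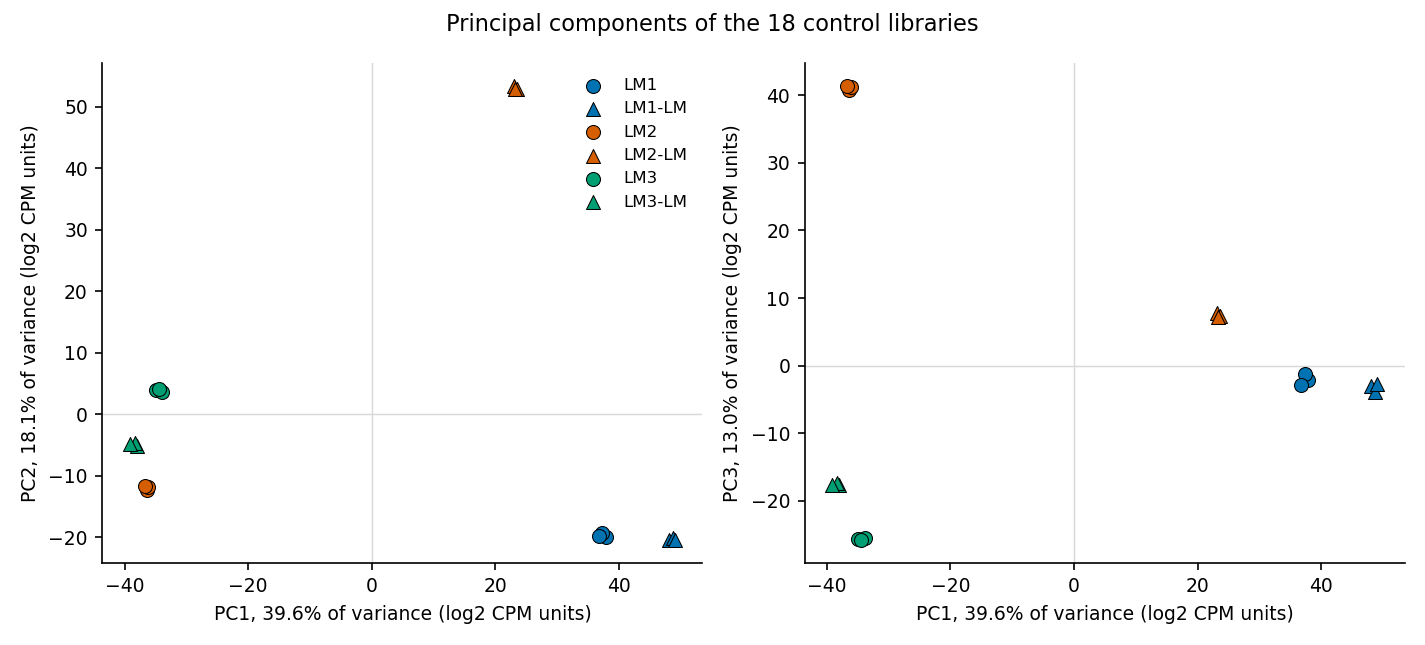
Scores of the 18 control libraries on principal components PC1 and PC2 (left) and PC1 and PC3 (right) of log2 CPM, in log2 CPM units, with the percentage of variance on each axis. Circles are LM and triangles LM-LM libraries, coloured by line number, and the 3 cultures of a line lie together while lines of one group lie far apart.

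Same-numbered lines 1 and 3 resembled each other more than they resembled the rest of their own group. Across the 13795 genes tested, the correlation of log2 CPM averaged 0.988 between LM1 and LM1-LM libraries and 0.989 between LM3 and LM3-LM libraries, against 0.992 to 0.993 between cultures of one line. For LM2 and LM2-LM it was 0.966, and LM2-LM was nearest to LM1 (0.975). These are descriptions across genes, which are not independent replicates. The deviations of the lines from their group means showed the same split, with r of 0.685 for lines numbered 1, 0.489 for lines numbered 3 and -0.03 for lines numbered 2. Since the numbers did not pair all 3 lines, they were not used as pairs.

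The median difference between LM-LM and LM was smaller than the spread between lines. Over the 13795 genes, the median absolute difference between the group means was 0.0833 log2 CPM units. The median distance between the highest and lowest line was 0.292 among the LM lines and 0.325 among the LM-LM lines, and the median SD between cultures of a line was 0.0730. A distance between extremes is by its nature wider than a difference of means. The median SD between line means was 0.153 in LM and 0.170 in LM-LM. Of the variance between the 6 line means, 12.3% lay between the groups and the remainder between lines of one group. Dividing interchangeable lines into groups would also leave a share between the groups. The same-numbered differences were of unequal size, with medians of 0.0805 for LM1-LM against LM1, 0.113 for LM3-LM against LM3 and 0.217 for LM2-LM against LM2.

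**Figure D2:**
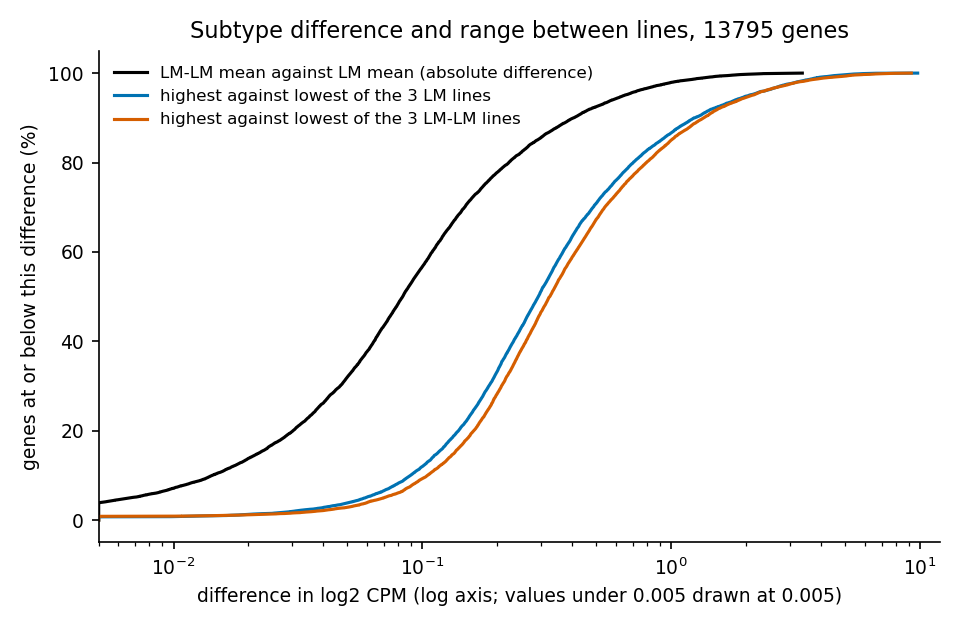
Cumulative percentage of the 13795 genes (vertical axis) with a difference in log2 CPM at or below the value on the horizontal log axis, for the absolute difference between the LM-LM and LM means (black) and the distance between the highest and lowest of the 3 LM lines (blue) or 3 LM-LM lines (orange). The black curve reaches 50% at 0.0833 and the line curves reach it at 0.292 and 0.325.

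Tested within a group, the lines differed at most genes. In a model with a mean for each line, edgeR's quasi-likelihood test (Benjamini-Hochberg adjusted) found a difference among LM1, LM2 and LM3 at 8537 of 13795 genes (61.9%), of which 1610 spanned at least 1 log2 unit. Among LM1-LM, LM2-LM and LM3-LM there were 9408 such genes (68.2%), of which 1868 spanned at least 1 log2 unit. The difference between LM-LM and LM was itself not the same for the 3 line numbers at 7175 genes (52.0%). These tests take the spread between cultures of a line as their error.

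In the model with subtype only, 106 of the 13795 genes (0.768%) differed between LM-LM and LM at a p-value under 0.05 in edgeR's quasi-likelihood test after Benjamini-Hochberg adjustment. The level in LM-LM was higher for 37 of them (0.268%) and lower for 69 (0.500%). This balance turned when the model held only the LM and LM-LM subtypes, with 59 called genes (35 higher, 24 lower), of which 29 were among the 106. The model counts the 9 cultures of a group as separate samples, so lines enter it 3 times. With the counts of a line's cultures summed, which leaves 3 units a group, 0 of 16017 genes (0.00%) were called by edgeR's quasi-likelihood test, with 208 genes at an unadjusted p under 0.05 and a smallest adjusted p of 1. DESeq2 called 0 of 25828 genes on these sums, with 190 at an unadjusted p under 0.05. The 106 calls also rested on single lines. Without LM2-LM there were 18 called genes, of which 10 were among the 106, and without LM2 there were 30, of which 21 were among the 106. Leaving out LM1, LM3, LM1-LM or LM3-LM gave 596, 181, 159 and 2063 called genes, and leaving out the cultures of any 1 number gave 0 (759 to 852 genes at an unadjusted p under 0.05). Of the 106 called genes, 84 also differed among the LM lines and 68 among the LM-LM lines, beside 61.9% and 68.2% of all genes. For 81 the distance between lines within one group or both was at least as large as the difference between the groups. The share of all genes with such a distance was not counted.

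Without regard to a test across genes, the 3 LM-LM line means all lay above the 3 LM line means at 385 genes (2.79%) and all below at 243 genes (1.76%). Gaps of at least 1e-06 log2 CPM units were counted, so that lines tied at 0 counts are not separate. Without scaling of CPM the numbers were 282 above and 296 below. For the 106 called genes this held for 53, of which 23 lay above and 30 below, and the line means of the other 53 overlapped or were tied. An exact permutation test on 3 lines against 3 cannot give a two-sided p below 0.1, which is the value for each gene whose lines do not overlap. Interchangeable lines would separate, above or below, with this probability, and the shares of all genes did not exceed it. Separation alone therefore sets no gene apart. In the text that follows, 24 genes (mean log2 CPM at least 2) represent the called genes with separate lines, the 12 largest increases and the 12 largest decreases, and 4 of them remained called without each of the 6 lines in turn: Slc16a3 and Mcfd2 among the higher genes, and Scx and Sorl1 among the lower.

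Slc16a3 (ENSMUSG00000025161, plus strand of chromosome 11, 120948480 to 120960868 in GRCm38) encodes MCT4, the transporter through which glycolytic cells export lactate. Its level in single cultures was 157 to 162 CPM in LM1, 117 to 118 CPM in LM2 and 171 to 181 CPM in LM3, and 213 to 229 CPM in LM1-LM, 241 to 251 CPM in LM2-LM and 183 to 190 CPM in LM3-LM. Every LM-LM culture lay above every LM culture, although LM3 and LM3-LM lay close together. The mean was 217 ± 29.1 CPM in LM-LM and 151 ± 30.4 CPM in LM (SD, n = 3 lines), a log2 fold change of 0.50 (standard error 0.080, adjusted p = 0.0040, edgeR's quasi-likelihood test, Benjamini-Hochberg adjusted). Without single lines the log2 fold change was 0.35 to 0.64, with an adjusted p of at most 0.0462 in the same test. Slc16a3 also had the smallest adjusted p, 0.0818, when limma's voom took the line as a random block, where 0 genes were called and 338 had an unadjusted p under 0.05. In the parental Myc310 line Slc16a3 stood at 56.3 CPM, a log2 fold change of 1.43 for LM over Myc310 from the same LM libraries, which carries no test because Myc310 is a single line.

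Mcfd2 (ENSMUSG00000024150, minus strand of chromosome 17, 87254443 to 87265935) encodes the partner of LMAN1 in carrying coagulation factors from the endoplasmic reticulum to the Golgi. Its LM-LM lines lay close together, at 76.8, 76.0 and 78.0 CPM in LM1-LM, LM2-LM and LM3-LM, while LM1, LM2 and LM3 had 69.6, 56.6 and 65.7 CPM. The lowest LM-LM culture had 74.8 CPM and the highest LM culture 71.4 CPM, so that the groups did not overlap. The log2 fold change of Mcfd2 was 0.25 (standard error 0.042, adjusted p = 0.0052, edgeR's quasi-likelihood test, Benjamini-Hochberg adjusted). Its LM-LM lines did not pass the test for a difference among them (adjusted p = 0.31, same test), and its LM lines did (adjusted p = 4.42e-07, same test).

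The remaining 10 named increases were of 0.19 to 0.34 log2 units. Bnip3 (ENSMUSG00000078566, minus strand of chromosome 7, 138890836 to 138909519), an outer mitochondrial membrane protein that marks mitochondria for autophagy and is induced by low oxygen, had 82.7, 83.6 and 71.8 CPM in LM1, LM2 and LM3. It had 94.0, 110.0 and 100.5 CPM in LM1-LM, LM2-LM and LM3-LM. The groups of lines did not overlap, while 1 LM2 culture at 92.8 CPM lay above 2 LM1-LM cultures. The log2 fold change of Bnip3 was 0.34 (standard error 0.062, adjusted p = 0.0087, edgeR's quasi-likelihood test, Benjamini-Hochberg adjusted), and without LM2-LM it was 0.28 (adjusted p = 0.12, same test). Higd1a, a mitochondrial inner membrane protein that is also induced by low oxygen, rose by 0.22 log2 units from 39.1 ± 1.45 CPM to 46.1 ± 3.32 CPM (SD, n = 3 lines). Cyth3, an exchange factor for ARF GTPases, rose by 0.23 and the tubulin gene Tubb6 by 0.21 log2 units. The others that rose were Plekhb2, a protein of recycling endosomes, Nus1, a subunit of the enzyme that makes dolichol, Pea15a, which binds ERK kinases, Tmbim4, Wbp1l and Uhrf1bp1l. Of these 10, Bnip3, Tubb6 and Uhrf1bp1l were called without 5 of the 6 lines, and none of the 10 was called without LM2-LM. The log2 fold changes without LM2-LM were 0.14 for Plekhb2, 0.14 for Tubb6 and 0.11 for Nus1, from 0.21, 0.21 and 0.20 with all lines, while those of Higd1a (0.20) and Pea15a (0.22) stayed close to their values with all lines (0.22 and 0.19). All 10 remained above 0, which the choice of genes with separate line means made near certain.

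Sorl1 (ENSMUSG00000049313, minus strand of chromosome 9, 41964720 to 42124297), an intracellular sorting receptor of the VPS10 family, had the largest decrease among the named genes. Its level in single cultures was 6.80 to 7.14 CPM in LM1, 14.8 to 16.1 CPM in LM2 and 7.81 to 9.28 CPM in LM3, and 2.56 to 3.41 CPM in LM1-LM, 1.92 to 2.05 CPM in LM2-LM and 3.42 to 4.14 CPM in LM3-LM. All 9 LM-LM cultures lay below all 9 LM cultures. The means were 2.86 ± 0.848 CPM and 10.2 ± 4.47 CPM (SD, n = 3 lines), a log2 fold change of -1.86 (standard error 0.271, adjusted p = 0.0022, edgeR's quasi-likelihood test, Benjamini-Hochberg adjusted). Without LM2, the highest line, the log2 fold change of Sorl1 was -1.44 (adjusted p = 0.0165, same test). Myc310 had 14.9 CPM, next to LM2.

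Scx (ENSMUSG00000034161, plus strand of chromosome 15, 76457452 to 76459458) encodes scleraxis, the transcription factor of tendon and ligament progenitors. LM1, LM2 and LM3 had 10.2, 8.55 and 11.99 CPM and the 3 LM-LM lines, in the same order, had 6.68, 4.82 and 7.63 CPM. The highest LM-LM culture had 7.88 CPM and the lowest LM culture 8.30 CPM. The differences of Scx were -0.60, -0.82 and -0.65 log2 CPM units for lines numbered 1, 2 and 3. The log2 fold change of Scx was -0.70 (standard error 0.113, adjusted p = 0.0040, edgeR's quasi-likelihood test, Benjamini-Hochberg adjusted). Scx lies on the opposite strand from Bop1, a tested gene that overlaps it, and whether the counting used strand is not given in the sources used here. Myc310 stood at 19.7 CPM, and the log2 fold change of LM over this single line, from the same LM libraries and with no test, was -0.94.

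The other 10 named decreases were of 0.24 to 0.70 log2 units. Dmpk (ENSMUSG00000030409, plus strand of chromosome 7, 19083849 to 19093821), the myotonic dystrophy kinase, had 57.4, 46.2 and 52.8 CPM in LM1, LM2 and LM3 and 34.5, 19.2 and 43.4 CPM in LM1-LM, LM2-LM and LM3-LM. Its log2 fold change was -0.70 (standard error 0.145, adjusted p = 0.0183, edgeR's quasi-likelihood test, Benjamini-Hochberg adjusted), and 1 LM3-LM culture, at 48.2 CPM, lay above the LM2 cultures. Genes of transcriptional control in this group were Nfix, a nuclear factor I protein (-0.55), and Hes1, a repressor downstream of Notch (-0.45). Those of metabolism were Mttp, which loads lipid onto lipoproteins (-0.58), and the glycine transporter Slc6a9 (-0.38). Plekhg5 (-0.66) and Farp1 (-0.36) are guanine nucleotide exchange factors, Arvcf (-0.54) is a catenin of cell junctions, Trp53inp1 (-0.57) is a p53 target that takes part in autophagy, and Acd (-0.24) is a subunit of shelterin at telomeres. Without LM2-LM none of these 10 was called, with fewer libraries in the fit, and the fold changes themselves moved unequally. They were -0.43 for Dmpk, -0.37 for Plekhg5 and -0.32 for Arvcf, moves of more than 1.5 times, but -0.24 for Acd, -0.66 for Nfix and -0.55 for Trp53inp1, close to the values with all lines. The decrease of Trp53inp1 rested on LM2, without which it was -0.27 (adjusted p = 0.44, edgeR's quasi-likelihood test, Benjamini-Hochberg adjusted), and without LM2 that of Slc6a9 was -0.25 (adjusted p = 0.28, same test). Opposite strands held a tested gene for Acd, Arvcf, Mttp, Nfix and Slc6a9, and for Pea15a and Tmbim4 among the increases.

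**Figure D3:**
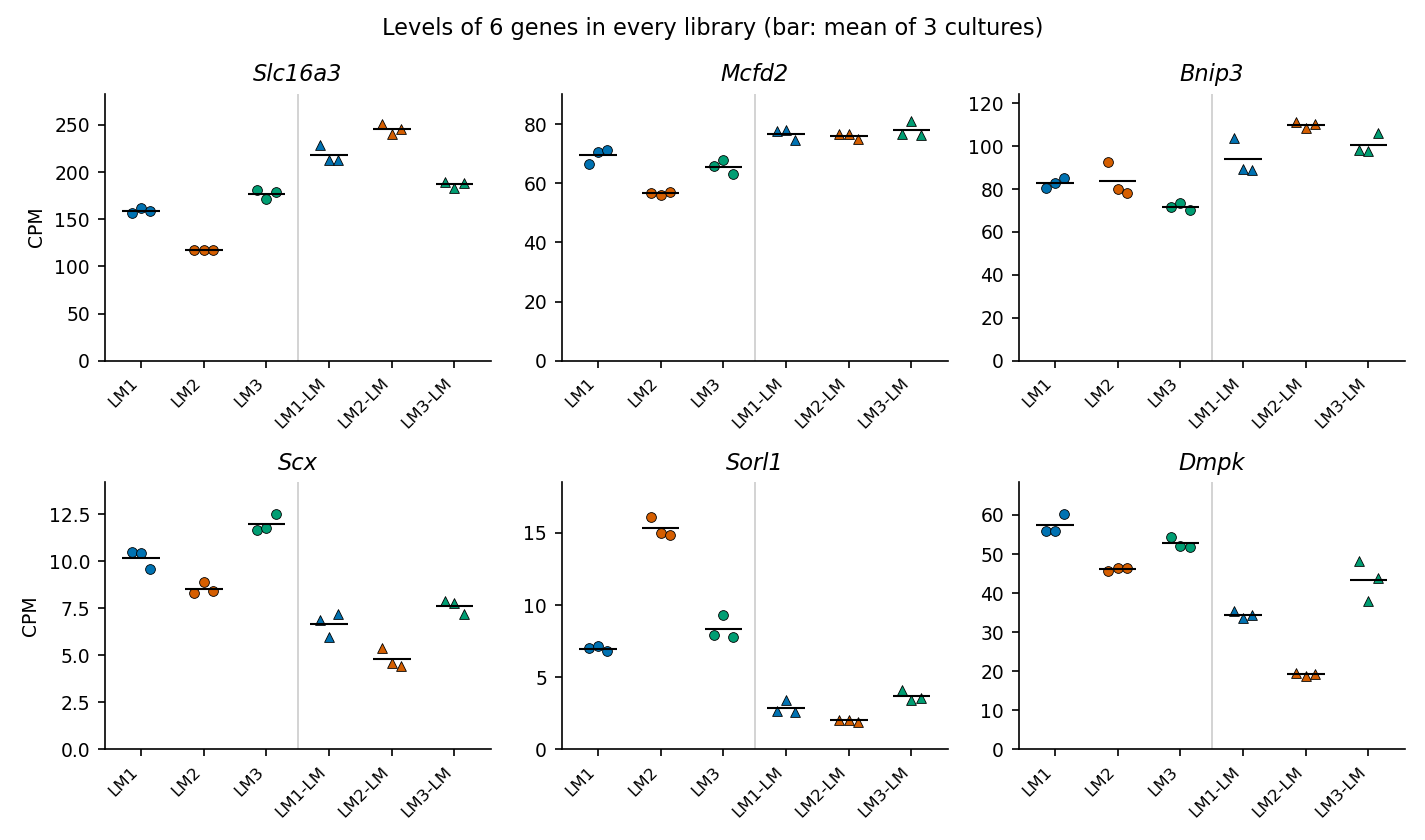
CPM (vertical axes, each starting at 0) of Slc16a3, Mcfd2, Bnip3, Scx, Sorl1 and Dmpk in each of the 18 libraries, grouped by line (horizontal axis), with LM to the left and LM-LM to the right of the grey line and a bar at the mean of 3 cultures. In Slc16a3, Mcfd2, Scx and Sorl1 the 9 LM-LM cultures do not overlap the 9 LM cultures, and in Bnip3 and Dmpk single cultures do.

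The larger folds among the 106 genes came mainly from 1 line. Of the called genes, 56 had a log2 fold change of at least 1 in size, 17 higher and 39 lower. In 37 of these 56, the mean log2 CPM of 1 line lay at least 2 units from that of each of the other 5 lines, a split that was chosen after the values were seen, as were the genes named from it. The line was LM2, above the others, at 24 genes called lower in LM-LM, and LM2-LM, above the others, at 12 genes called higher. The remaining gene was Itga8, an integrin subunit called lower, with 0.135 CPM in LM2-LM against 0.923 to 2.54 CPM in the other lines. No called gene was set apart in this way by LM1, LM3, LM1-LM or LM3-LM, and none of the 50 called genes with smaller folds was set apart by any line. Over all 13795 genes, LM2 stood above the other 5 lines at 54 genes and LM2-LM at 21, against 0 to 5 for the other lines. In the other direction LM2-LM stood below the other 5 lines at 27 genes, LM2 at 21, LM1-LM at 19, LM1 at 5 and LM3 and LM3-LM at 0.

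The LM2-LM genes included Col4a3, a chain of the type IV collagen of basement membranes, which had 37.3 to 38.7 CPM (873 to 1002 counts) in the LM2-LM cultures and 0 counts in each culture of the other 5 lines, so that no fold is given. Arhgef15, a guanine nucleotide exchange factor, had 78.6 CPM in LM2-LM and 0.701 to 1.79 CPM in the other lines. Fbp2, the muscle form of fructose bisphosphatase, had 143.5 CPM against 11.6 to 29.9 CPM. F2rl3, the thrombin receptor PAR4, had 28.9 CPM and Unc93b1, which brings Toll-like receptors to endosomes, 8.09 CPM in LM2-LM. These 5 genes were called higher in LM-LM with no contribution from LM1-LM and LM3-LM that lay outside the LM range, apart from LM1-LM at Fbp2 (29.9 CPM) and, narrowly, F2rl3 (3.27 CPM against at most 3.19 CPM).

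Among the LM2 genes, Emilin2, a glycoprotein of the extracellular matrix, had 79.1 CPM in LM2 and at most 3.22 CPM in the other 5 lines, Efemp2, which encodes fibulin-4, had 18.1 CPM against at most 0.566 CPM, and Mfap5 had 2.14 CPM against at most 0.0672 CPM. The kainate receptor gene Grik3 had 7.11 CPM (157 to 178 counts per culture) in LM2 and at most 1 count in any other culture. Cacna1c, a calcium channel subunit, had 7.19 CPM (152 to 180 counts) against at most 2 counts. Myc310 lay between LM2 and the other 5 lines at Emilin2 (17.8 CPM) and Efemp2 (8.64 CPM), while Grik3 and Mfap5 were near 0 in Myc310.

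**Figure D4:**
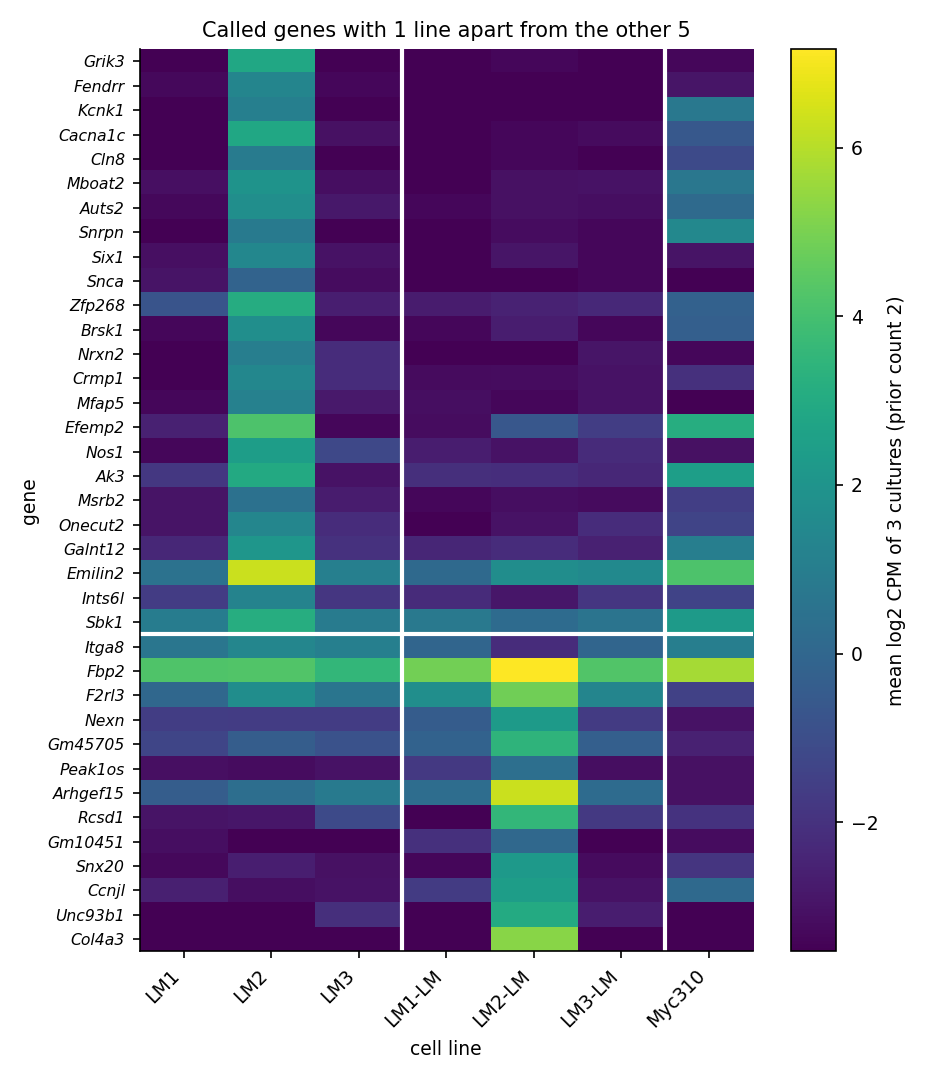
Mean log2 CPM of 3 cultures (colour, prior count of 2) of the 37 called genes in which 1 line lay at least 2 log2 units from the other 5, in the 6 lines and in Myc310 (columns). The upper block holds 24 genes that are high in LM2 alone among the 6 lines, and the lower block holds Itga8 and 12 genes that are high in LM2-LM.

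Glycolysis and the response to low oxygen held most of the called list members. Cells short of oxygen stabilise HIF transcription factors, which raise glucose transport, glycolytic enzymes and lactate export. Of the 21 members tested, 3 rose in LM-LM (Slc16a3, Bnip3 and Pgam1), beside 0.268% of all genes, and none fell. With counts summed per line, and with the line as a random block in voom, none of the 21 was called. The list median was 0.06 log2 units, against a median of -0.0047 over all 13795 genes. Pgam1, the glycolytic phosphoglycerate mutase, had 1343, 1335 and 1278 CPM in LM1-LM, LM2-LM and LM3-LM and 1233, 1125 and 1223 CPM in LM1, LM2 and LM3. The rise of Pgam1 was 0.13 log2 units (adjusted p = 0.0183, edgeR's quasi-likelihood test, Benjamini-Hochberg adjusted), and without LM2 it was 0.09 (adjusted p = 0.19, same test). Line means lay above those of LM at 5 of the 21 members, the 3 called genes with Aldoa and Pgk1, beside 2.79% of all genes. Most of the other members lay near 0 or overlapped. The log2 fold change was -0.05 for the glucose transporter gene Slc2a1, 0.05 for Hk2, -0.14 for Car9, -0.04 for Ndrg1 and 0.28 for Vegfa, none of which passed the test, and Eno1 stood at 1149 CPM in LM2-LM against 1871 to 1947 CPM in the other 5 lines.

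The promoters of the 3 called members are shown because HIF factors bind the letters ACGTG and GCGTG. Each window is the 250 bases before the gene start in RefSeq for GRCm38.p6, read 5′ to 3′ on the strand of the gene, with matches to either motif on either strand in capitals. The windows are chr11:120948817-120949066 (plus strand) for Slc16a3, chr7:138909507-138909756 (minus strand) for Bnip3 and chr19:41911621-41911870 (plus strand) for Pgam1, and they are taken from RefSeq starts. In GENCODE the Slc16a3 gene begins further upstream, so that its window lies within the printed span of the gene, and the last bases of the Bnip3 window lie within the span of Bnip3.
Slc16a3: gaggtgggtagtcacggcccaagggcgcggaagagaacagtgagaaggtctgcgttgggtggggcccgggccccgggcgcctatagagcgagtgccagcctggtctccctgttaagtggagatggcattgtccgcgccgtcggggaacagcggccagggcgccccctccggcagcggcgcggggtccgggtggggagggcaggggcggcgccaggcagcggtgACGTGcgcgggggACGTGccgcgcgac
Bnip3: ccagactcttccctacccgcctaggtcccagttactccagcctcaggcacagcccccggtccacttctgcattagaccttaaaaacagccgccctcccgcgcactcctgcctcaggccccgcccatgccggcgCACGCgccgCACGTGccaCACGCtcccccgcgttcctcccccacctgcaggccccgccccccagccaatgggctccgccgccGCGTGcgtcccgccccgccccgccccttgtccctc
Pgam1: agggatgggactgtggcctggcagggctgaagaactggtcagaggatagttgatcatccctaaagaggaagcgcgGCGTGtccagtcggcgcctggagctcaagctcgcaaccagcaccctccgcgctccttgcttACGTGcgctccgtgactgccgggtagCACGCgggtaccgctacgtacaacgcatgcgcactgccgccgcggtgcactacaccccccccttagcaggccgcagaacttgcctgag
The Slc16a3 window held ACGTG 2 times and GCGTG 0 times, in the last 30 bases before the RefSeq start. The Bnip3 window held GCGTG 3 times and ACGTG 2 times, the latter as the overlapping matches of a single CACGTG on both strands. The Pgam1 window held ACGTG once and GCGTG 2 times. Of 32851 promoter windows of the same length, 16.6% held ACGTG, 28.2% held GCGTG and 38.6% held either, and of the 29 windows of the 20 list members with an entry, 23 held either. A match is a description of the letters and not evidence of binding.

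The other 18 functional lists held 1 called gene, Trp53inp1 in the list of p53 and its targets (15 members tested), where Cdkn1a and Mdm2 had log2 fold changes of 0.04 and 0.15 that did not pass the test. This call of 1 in 15 stands beside 0.500% of all genes called lower, and the call of Trp53inp1 was lost with counts summed per line (edgeR, adjusted p = 1) and with the line as a random block in limma's voom (adjusted p = 0.999993). None of 26 genes of glutathione and cysteine metabolism, 24 NRF2 targets or 29 genes of the amino acid stress response was called, beside 0.768% of all genes, a share at which a list of this size need hold no call. Their medians were -0.023, -0.014 and -0.023 log2 units. The cystine transporter gene Slc7a11 had 9.76 to 10.4 CPM in LM and 8.86 to 11.8 CPM in LM-LM lines (log2 fold change -0.01). None of 22 genes of DNA replication and mitosis or 23 of sterol and fatty acid synthesis was called (medians -0.0052 and -0.00070 log2 units). Of the 22 replication genes, the lines of 3 lay above without overlap and those of 1 below, beside 2.79% and 1.76% of all genes. The median distance between lines in these lists was 0.162 and 0.153 log2 units among LM and LM-LM lines for replication and 0.547 and 0.544 for lipid synthesis.

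The lists for the cell surface and matrix held no called gene, although called genes outside the lists, such as Col4a3, Itga8, Itga2b, Emilin2, Efemp2 and Mfap5, encode matrix proteins or integrins. The lists of extracellular matrix proteins (29 tested), matrix proteases and inhibitors (21), integrins and adhesion (18), chemokines and cytokines (22), and growth factors and receptors (25) had medians of -0.050, -0.037, -0.050, -0.046 and -0.028 log2 units. Over these lists, the lines of 3 members lay above without overlap (Adamts1, Vcam1 and Cd44), beside 2.79% of all genes, and those of 2 lay below (Cxcl16 and Tslp), beside 1.76%. Over the members tested these numbers are near the shares of all genes, so they are no result about the lists. The protease gene Adamts1 stood at 19.1, 22.8 and 30.6 CPM in LM1, LM2 and LM3 and 36.7, 31.5 and 36.4 CPM in LM1-LM, LM2-LM and LM3-LM (log2 fold change 0.51, adjusted p = 0.088, edgeR's quasi-likelihood test, Benjamini-Hochberg adjusted). Vcam1, an adhesion molecule, had 3.87 to 4.67 CPM in LM and 5.13 to 7.26 CPM in LM-LM lines, and the hyaluronan receptor gene Cd44 had 386 to 416 CPM and 422 to 455 CPM. Cxcl16, a membrane-bound chemokine, had 6.38 to 7.67 CPM in LM and 3.63 to 6.23 CPM in LM-LM lines. Tslp, an epithelial cytokine, had 2.55 to 2.90 CPM and 2.01 to 2.505 CPM. None of the 5 passed the test across all genes. The gelatinase gene Mmp2 overlapped, with 38.3, 45.2 and 83.6 CPM in LM1, LM2 and LM3 and 55.04, 144 and 86.1 CPM in LM1-LM, LM2-LM and LM3-LM.

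In lists of epithelial and mammary genes the lines of one group lay far apart. Of 10 epithelial genes tested none was called, 2 of 10 had a log2 fold change above 0 and the median was -0.22. None of 7 mammary luminal and 8 mammary basal genes was called, with medians of -0.19 (1 of 7 above 0) and -0.019 (4 of 8 above 0). At the epithelial genes the lines spanned a median of 1.75 log2 units in LM and 1.80 in LM-LM, against 0.292 and 0.325 over all genes. Krt19, a keratin of simple epithelia, had 6.06, 72.4 and 53.6 CPM in LM1, LM2 and LM3 and 5.29, 3.17 and 108 CPM in LM1-LM, LM2-LM and LM3-LM. Krt7 followed the same order of high and low lines, with 37.6 to 82.3 CPM in LM2, LM3 and LM3-LM and 3.42 to 9.51 CPM in LM1, LM1-LM and LM2-LM. Dsp, the desmosomal plaque protein desmoplakin, had 32.3, 56.4 and 169 CPM in LM1, LM2 and LM3 and 0.858, 6.44 and 47.8 CPM in LM1-LM, LM2-LM and LM3-LM, so that each LM-LM line lay below its same-numbered line while LM1 lay below LM3-LM (log2 fold change -2.24, adjusted p = 0.22, edgeR's quasi-likelihood test, Benjamini-Hochberg adjusted). Of 13 mesenchymal genes none was called, 10 of 13 had a log2 fold change above 0 and the median was 0.10, beside 6594 of all 13795 genes above 0. Their range was wide, from -0.88 to 2.27, with the receptor kinase gene Axl at 531 to 631 CPM in LM and 614 to 680 CPM in LM-LM lines.

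At 11 of the 13 genes of MHC class I antigen presentation, LM2, LM3 and LM3-LM all lay above LM1, LM1-LM and LM2-LM, a split by line that was chosen after the values were seen. The first principal component divides the lines in the same way, and the share of all genes with this split was not counted. The 11 of 13 can therefore not be read as particular to this list. Psmb8, a subunit of the immunoproteasome, had 2.09, 19.2 and 23.1 CPM in LM1, LM2 and LM3 and 2.61, 4.08 and 29.3 CPM in LM1-LM, LM2-LM and LM3-LM. Nlrc5, the transactivator of MHC class I genes, ranged from 1.54 to 6.84 CPM in LM2, LM3 and LM3-LM and from 0.0143 to 0.863 CPM in LM1, LM1-LM and LM2-LM. H2-K1, a class I heavy chain, had 138 to 164 CPM in the former lines and 86.2 to 99.5 CPM in the latter. The split was narrow at Psmb10 (28.7 to 35.4 CPM over the 6 lines), and the members without it were H2-T23 (2.35 to 3.84 CPM) and Erap1 (57.5 to 69.7 CPM, highest in LM2-LM). None of 13 MHC class I genes and none of 27 interferon-stimulated genes was called between LM-LM and LM. Their medians were -0.10 and -0.20 log2 units, with 2 of 13 and 3 of 27 members above 0. Among the lines of each group 12 of the 13 differed, beside 61.9% of all genes in LM and 68.2% in LM-LM. The 14 Wnt genes tested gave 0 calls, with a median of -0.24 log2 units and lines that spanned medians of 1.51 and 1.29.

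**Figure D5:**
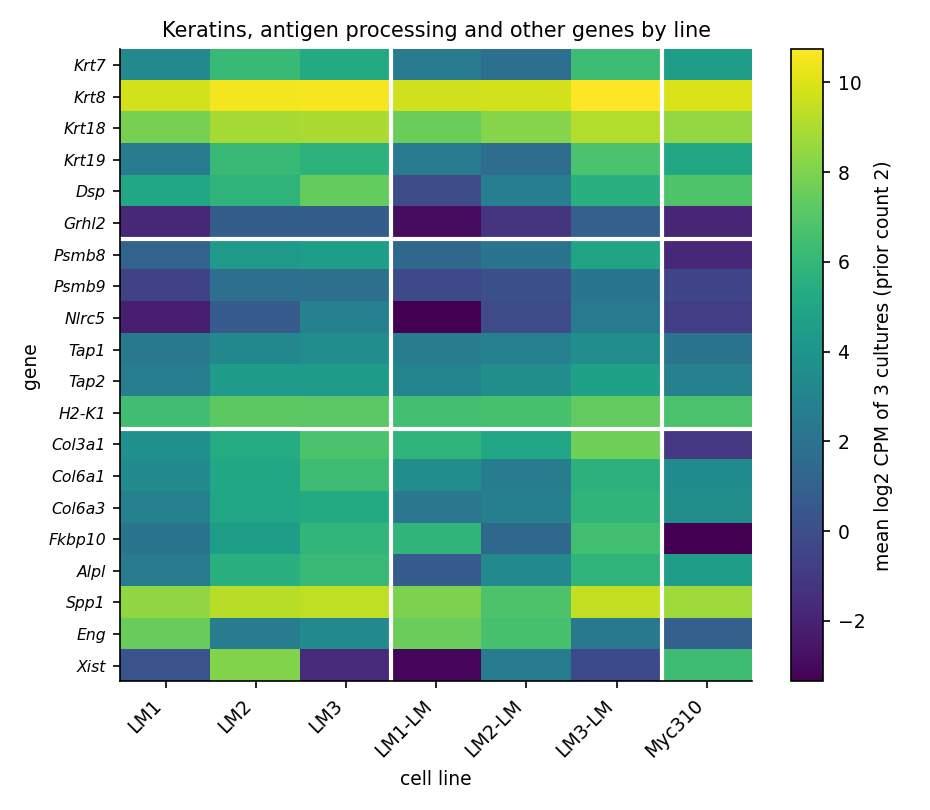
Mean log2 CPM of 3 cultures (colour, prior count of 2) of keratin, desmosome and epithelial regulator genes (top), antigen processing genes (middle), and matrix, mineralisation and other genes (bottom) in the 6 lines and Myc310 (columns). Krt7, Krt19, Psmb8 and Nlrc5 are high in LM2, LM3 and LM3-LM and low in LM1, LM1-LM and LM2-LM.

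For each line, the genes furthest above and below the mean log2 CPM of the other 2 lines of its group were named. Eng, the TGF-β co-receptor endoglin, was, among genes whose mean log2 CPM reached 4, the one furthest above its group in both LM1 (174 CPM) and LM1-LM (190 CPM) and furthest below it in LM3-LM (4.92 CPM), with 97.8 CPM in LM2-LM. In LM3 it was furthest below the average of LM1 and LM2 on the log2 scale, although at 10.5 CPM it lay above LM2 (6.19 CPM). The alkaline phosphatase gene Alpl was lowest in LM1 (5.31 CPM, against 48.8 and 73.8 CPM in LM2 and LM3). LM2 was set apart by Nes, the filament gene nestin (105 CPM), and by low Nup210, a nuclear pore protein (4.98 CPM). LM3 was set apart by Fkbp10, a collagen chaperone of the endoplasmic reticulum, with 60.8 CPM against 4.21 and 22.03 CPM, and Fkbp10 was also high in LM1-LM (58.9 CPM) and LM3-LM (89.4 CPM) and near 0 in Myc310 (0.0131 CPM). LM2-LM was set apart by Adcy3, an adenylyl cyclase (71.0 CPM), and by low Ckb, brain-type creatine kinase, which had 0.660 CPM against 31.7 and 65.3 CPM in its group. Each of these genes differed among the lines of both groups (adjusted p at most 9.39e-16, edgeR's quasi-likelihood test, Benjamini-Hochberg adjusted). They had been picked for their distance between lines in the same libraries, so this test restates the choice and adds no support. The fibrillar collagen gene Col3a1 had 12.9, 40.4 and 109 CPM in LM1, LM2 and LM3 and 56.5, 31.0 and 199 CPM in LM1-LM, LM2-LM and LM3-LM. The X-inactivation transcript Xist had 273 CPM in LM2, 6.04 CPM in LM2-LM and at most 1.1 CPM in the other 4 lines, with 80.7 CPM in Myc310, and Kdm5d and Uty of the Y chromosome were at 0.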

How the data were processed

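Polyadenylated RNA was prepared with a directional kit and sequenced from both ends. The authors aligned the reads with STAR to GRCm38 and quantified genes with RSEM, and the submitters' processing notes also name R 4.2.2 and DESeq2 1.38.3. The deposited values are RSEM estimated counts per gene, given as whole numbers without normalization for 28454 genes. All 45 columns were mapped to a sample, and 0 were left out.

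Counts were tested in R 4.3.3 with edgeR 4.0.16 (TMM normalisation, filterByExpr, quasi-likelihood test) with Benjamini-Hochberg adjustment over all genes tested and 0.05 as the threshold. In the subtype model, subtype was the only term and 30 control libraries of 10 lines were fitted. Its p-values measure the spread between cultures, which are technical replicates, as well as between lines. Counts summed per line and a model with a mean for each line were fitted beside it, and the exact permutation test on line means was two-sided. CPM used TMM factors, and logarithms a prior count of 2. Scripts were checked on simulated data. Alternatives were RLE and upper-quartile scaling, other filters, DESeq2 1.42.0, limma 3.58.1 (voom), fewer samples, and blocks.

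Of 45 pairs of same-numbered cultures of different lines, none had deviations correlated over 0.1 (-0.134 to 0.0933), so culture numbers share no pairing. Named genes are the 12 largest increases and 12 largest decreases among called genes with separate line means and a mean log2 CPM of at least 2, the gene highest and lowest in each line against its group (mean log2 CPM of at least 4), called members of 19 functional lists and 5 marker lists, further members needed to describe a list, and label checks. The comparison and the lists were chosen with earlier results of these data known. Of the listed genes, 13 are not used here. The test of differences between line numbers was added after the values were seen. Positions are from GENCODE vM21 and promoters from RefSeq, both GRCm38. Figures were drawn in Python 3.11.15.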

Additional observations from a re-analysis of the deposited data

Results flagged for a closer look

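The difference between LM-LM and LM was not the same for the 3 line numbers at 7175 of the 13795 genes tested. The result stands out because the differences LM1-LM minus LM1, LM2-LM minus LM2 and LM3-LM minus LM3 were compared directly, as an interaction, with edgeR's quasi-likelihood test (Benjamini-Hochberg adjusted), the spread between cultures being the error. The test was added after the values were seen, and the numbers are not known to mark parent and offspring. LM2-LM minus LM2 had the widest differences, with a median of 0.217 log2 CPM units in size and a 90th percentile of 0.987. The corresponding values were 0.113 and 0.491 for lines numbered 3 and 0.0805 and 0.488 for lines numbered 1. Dsp shows the range of such differences, with LM1 at 32.3 CPM and LM1-LM at 0.858 CPM, LM2 at 56.4 CPM and LM2-LM at 6.44 CPM, and LM3 at 169 CPM and LM3-LM at 47.8 CPM.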

How the results depend on the processing

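The count of 106 genes called in the subtype model (37 higher, 69 lower) was within 1.5 times under RLE (112) and upper-quartile scaling (101). It was 65 (38 lower) with no filter on low counts, 30 (16 higher, 14 lower) with at least 10 counts in every library, 236 (111 higher, 125 lower) with DESeq2, and 59 (24 lower) with only the LM and LM-LM subtypes in the model. Leaving out single lines gave 18 to 2063 calls (8 to 691 higher, 10 to 1372 lower), and leaving out the cultures of 1 number gave 0 for each number. With LM2 and LM2-LM both left out, an alternative added after the values were seen, there were 20 (12 higher, 8 lower), of which 5 were among the 106. With the culture number as a replicate block there were 68 (26 higher, 42 lower), although the numbers showed no pairing. With the line as a random block in limma's voom there were 0 (0 higher, 0 lower), and with a mean for each line, averaged, where the cultures alone give the error, there were 4847 (2216 higher, 2631 lower). The cause of these moves was not tested, apart from the smaller number of libraries or genes that some of them hold. With counts summed per line, 0 genes were called in the main fit and under each of its 14 alternatives (94 to 712 genes at an unadjusted p under 0.05), the line number as a block among them. Genes that differed between lines numbered 8291 among LM and 9167 among LM-LM with the 18 libraries alone, and 1610 and 1868 when a fold of at least 2 was also required. Genes with separate line means numbered 282 to 345 above and 270 to 296 below under other scalings of CPM, also added after the values were seen. Without scaling, more lay below (296) than above (282). For the 24 named genes and Pgam1, 233 of 450 values under alternatives stayed past the threshold, 217 did not and 0 changed direction. These genes all have separate line means and can hardly change direction, so that 0 is no sign of stability. Of 429 list medians, 18 moved by more than the pooled SD of the list median between lines of one group, which is not the spread between cultures. Lists with no member left under the stricter filter have no value there.

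With 3 lines a group no exact test can pass 0.05, and depth limits genes under about 1 CPM, which had few counts per culture. Single isolates represent each line, the lines share an ancestor, and the sources used here do not give the parents of LM2-LM and LM3-LM or the strand setting of the counting.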

Other observations

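The 6 cultures of LM1 and LM1-LM that were kept without cysteine and cystine entered no test of this comparison. All 3 deprived LM1-LM cultures lay above all 3 deprived LM1 cultures at 11 of the 12 named higher genes and below them at 10 of the 12 named lower genes, beside 16.4% (above) and 15.3% (below) of all 13795 genes tested. In the control cultures of these lines, which took part in choosing the genes, the numbers were 12 and 10, beside 12.8% and 12.4% of all genes. Slc16a3, the lactate exporter gene, had 46.9 ± 0.999 CPM in deprived LM1 and 57.2 ± 5.17 CPM in deprived LM1-LM (SD, n = 3 cultures). Mcfd2 had mean levels of 80.8 CPM and 93.5 CPM and Scx of 5.45 CPM and 2.62 CPM in deprived LM1 and LM1-LM, and Sorl1 ranged over 3.72 to 4.2 CPM and 1.26 to 1.61 CPM in these cultures. Bnip3 was the named higher gene whose deprived cultures overlapped. These values concern 1 line of each group and carry no test.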
